A study of Mus musculus with 12 samples.

Results

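The granzyme gene cluster of mouse chromosome 14 was described here through 7 neighbouring genes, Gzmb, Gzmc, Gzmd, Gzme, Gzmf, Gzmg and Mcpt8, of the 13283 genes in the expression table. They were chosen by their symbols and position, and the cluster was picked out with the fold changes of these same libraries already known, so every level and difference below is a description and none is independent support for a shift of the cluster. The measurements were FPKM (fragments scaled to exon length and to library depth) from RNA sequencing of mouse cytotoxic T lymphocytes (CTL) in 4 groups of 3 libraries. WT and WT+PI3Kdi were GzmB cre+ cells. FOXO1-GFP KO and FOXO1-GFP KO+PI3Kdi were FOXO1-GFPfl/fl Gzmb cre+ cells, in which Foxo1 exon 2, carrying EGFP, is flanked by loxP sites. Thus all 4 groups carried a Cre recombinase driven by the granzyme B promoter, and the Foxo1 deletion depended on cells having switched that promoter on. The cells came from lymph nodes or spleens of female mice aged 11 to 27 weeks. They were activated with antibodies to CD3 and CD28 for 48 h with IL-2 at 20 ng/mL plus IL-12 at 2 ng/mL. On the sixth day they received 10 µM IC87114, an inhibitor of the PI3K p110δ catalytic subunit (PI3Kdi), or DMSO vehicle for 24 h. Both cytokines were kept at these concentrations through the culture after activation and through the 24 h step. WT cells were then sorted as CD8+ and KO cells as CD8+GFP-.

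Granzymes are serine proteases that CTL store in cytotoxic granules and deliver, with the pore-forming protein perforin, into target cells. Granzyme B cleaves after aspartate and starts apoptosis through caspases and Bid, whereas the mouse granzymes C to G are its less studied relatives, and Mcpt8 encodes a related protease best known as a product of basophils. PI3K p110δ acts through AKT to keep the transcription factor FOXO1 out of the nucleus, so that inhibiting the kinase and deleting Foxo1 bear on the same factor from opposite sides. The 4 comparisons between groups therefore ask whether the 7 genes of the locus follow the kinase and the factor as 1 block or each in its own way.

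The 7 genes span 180.1 kb on the minus strand of chromosome 14 (GRCm38). From low to high coordinate they run Mcpt8 (chr14:56082166-56085273), Gzme (chr14:56117626-56120625), Gzmd (chr14:56129556-56132608), Gzmg (chr14:56156582-56159579), Gzmf (chr14:56205263-56211417), Gzmc (chr14:56231441-56234656) and Gzmb (chr14:56258838-56262260). Ctsg, which encodes cathepsin G, lies between Mcpt8 and Gzme, and Gzmn, which was not analysed here, lies between Gzmg and Gzmf. Coding sequences were most alike for Gzmd and Gzme, at 93.3% identity over the alignment with gaps counted, followed by Gzme and Gzmg at 89.3%, and they were least alike between Mcpt8 and the others, at 58.1 to 60.7%. Gzmb was 75.7% identical to Gzmc and 65.0 to 67.3% identical to Gzmd, Gzme, Gzmf and Gzmg. Of all 75-base stretches (the read length) in each gene's transcripts, 6.83% for Gzmg, 5.73% for Gzmd and 4.75% for Gzme were shared. These also occurred in a transcript of another gene, in each case of a cluster neighbour. A single read within such a stretch does not tell the genes apart, and how far this altered their counts was not tested. No such stretch was shared for Gzmb, Gzmc, Gzmf or Mcpt8.

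The stretches just upstream of the genes are printed because they show which members have promoters of similar sequence. Each is the 200 bases before the RefSeq transcription start (GRCm38.p6, minus strand, 5′ to 3′), with capitals for TGTGGT on either strand, the core letters bound by RUNX factors, for TGACGTCA, the cAMP response element (CRE), or its version with 1 mismatch, and for TGANTCA, the letters bound by AP-1. The windows are chr14:56262335-56262534 for Gzmb, chr14:56234658-56234857 for Gzmc, chr14:56211408-56211607 for Gzmf, chr14:56159580-56159779 for Gzmg, chr14:56132594-56132793 for Gzmd, chr14:56120626-56120825 for Gzme and chr14:56085198-56085397 for Mcpt8.
Gzmb: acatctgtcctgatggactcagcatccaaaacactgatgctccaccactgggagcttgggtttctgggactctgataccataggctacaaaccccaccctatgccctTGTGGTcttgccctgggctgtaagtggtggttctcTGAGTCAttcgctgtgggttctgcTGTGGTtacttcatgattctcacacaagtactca
Gzmc: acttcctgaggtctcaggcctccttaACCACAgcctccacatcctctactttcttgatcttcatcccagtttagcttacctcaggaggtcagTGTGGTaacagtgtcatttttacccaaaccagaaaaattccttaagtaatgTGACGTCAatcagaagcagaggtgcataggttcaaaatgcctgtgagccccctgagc
Gzmf: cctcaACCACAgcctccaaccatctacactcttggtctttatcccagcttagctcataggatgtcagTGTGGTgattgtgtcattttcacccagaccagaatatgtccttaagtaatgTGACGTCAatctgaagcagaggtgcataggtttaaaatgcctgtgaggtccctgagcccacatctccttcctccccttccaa
Gzmg: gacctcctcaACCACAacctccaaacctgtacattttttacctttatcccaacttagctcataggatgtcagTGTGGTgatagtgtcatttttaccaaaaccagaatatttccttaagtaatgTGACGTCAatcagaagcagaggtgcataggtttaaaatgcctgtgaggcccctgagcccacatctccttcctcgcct
Gzmd: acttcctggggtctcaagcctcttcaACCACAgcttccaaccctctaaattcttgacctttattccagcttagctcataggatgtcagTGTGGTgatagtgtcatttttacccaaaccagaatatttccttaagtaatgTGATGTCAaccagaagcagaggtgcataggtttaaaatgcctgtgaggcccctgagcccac
Gzme: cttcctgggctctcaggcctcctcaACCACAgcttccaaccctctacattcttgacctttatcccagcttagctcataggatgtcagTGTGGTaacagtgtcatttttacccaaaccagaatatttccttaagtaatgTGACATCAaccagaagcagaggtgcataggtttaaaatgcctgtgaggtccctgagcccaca
Mcpt8: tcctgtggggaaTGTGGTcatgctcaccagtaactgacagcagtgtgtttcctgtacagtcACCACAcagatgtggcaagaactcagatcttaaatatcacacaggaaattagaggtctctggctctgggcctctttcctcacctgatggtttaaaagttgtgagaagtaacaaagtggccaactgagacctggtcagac

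Over the 300 bases around the start, Gzmd and Gzme were 93.4% identical, all pairs among Gzmc, Gzmd, Gzme, Gzmf and Gzmg were at least 73.5% identical, and Gzmb and Mcpt8 were at most 48.8% identical to any other member. Motifs were searched on both strands of these 300 bases, which reach past the start and so beyond the stretches printed. TGTGGT was present in all 7 promoters and in 16.9% of the 27025 mouse promoters of the same length. TGACGTCA was present in Gzmc, Gzmf and Gzmg and in 1.88% of all promoters. At the matching place the motif carried C4T in Gzmd and G5A in Gzme (motif base, position counted from 1 at its 5′ end, promoter base). Gzmb held it with T1A just after the start, so that 6 of 7 members and 12.9% of all promoters held the motif with 0 or 1 mismatch. TGANTCA was found only in Gzmb among the 7, and in 7.93% of all promoters. The FOXO letters GTAAACA, held by 3.55% of all promoters, and the T-box letters AGGTGTGA, held by 1.27%, occurred in none of the 7 promoters, and TTCNNNGAA, the STAT letters, occurred only in Gzmb, after the start (8.47% of all promoters). Such matches describe letters and not binding, and some motifs were picked with the sequences in view.

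The table held between 12829800 and 47906800 estimated reads per library, recovered from the spacing of the low FPKM values. Foxo1 lay between 5.77 and 10.5 FPKM in the 6 WT libraries and between 0.58 and 1.75 FPKM in the 6 KO libraries, as the labels have it. The 9 CD8 T cell markers summed to between 1474.5 and 2202.5 FPKM, with Cd4 at or under 0.95 FPKM and Zbtb7b, another CD4 T cell marker, at 4.32 to 6.9 FPKM. Of 14 basophil and mast cell markers only Cpa3 was in the table, at 0.19 to 0.62 FPKM, and of 6 NK cell markers 4 were in the table, Eomes at 81.8 to 112 FPKM, Fcer1g at 17.7 to 41.2, Klrb1c at 1.94 to 4.81 and Tyrobp at 0.6 to 2.25. The 3 B cell markers in the table summed to 11.4 to 19.5 FPKM in WT libraries and 4.31 to 6.88 FPKM in KO libraries. Their part in the genotype comparisons was not tested.

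Gzmb was the most abundant mRNA of the whole table, with a mean of 9213 FPKM over the 12 libraries (SD 1064), and made up 2.08 to 3.13% of all FPKM and 86.9 to 93.5% of the FPKM of the cluster. Because FPKM is a level per length, the members can be ranked, and the order of mean levels was Gzmb, Gzmd (492 FPKM), Gzme (268), Gzmc (160.03), Gzmg (66.5), Gzmf (20.2) and Mcpt8 (4.97). Each gene exceeded the next in all 12 libraries, except that Gzme exceeded Gzmc in 9 of 12. The 3 exceptions were the 3 WT+PI3Kdi libraries, where Gzmc took the higher place. Gzmb was also the steadiest, with a coefficient of variation of 11.5% over the 12 libraries, below the median of 15.7% over the 10371 genes that averaged 1 FPKM or more. The other 6 members varied by 32.1 to 47.6%, more than 89.7% or more of those genes. Estimated reads ran from 158647 to 667731 for Gzmb and from 45 to 252 for Mcpt8, so that counting error is largest for Mcpt8.

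**Figure D1:**
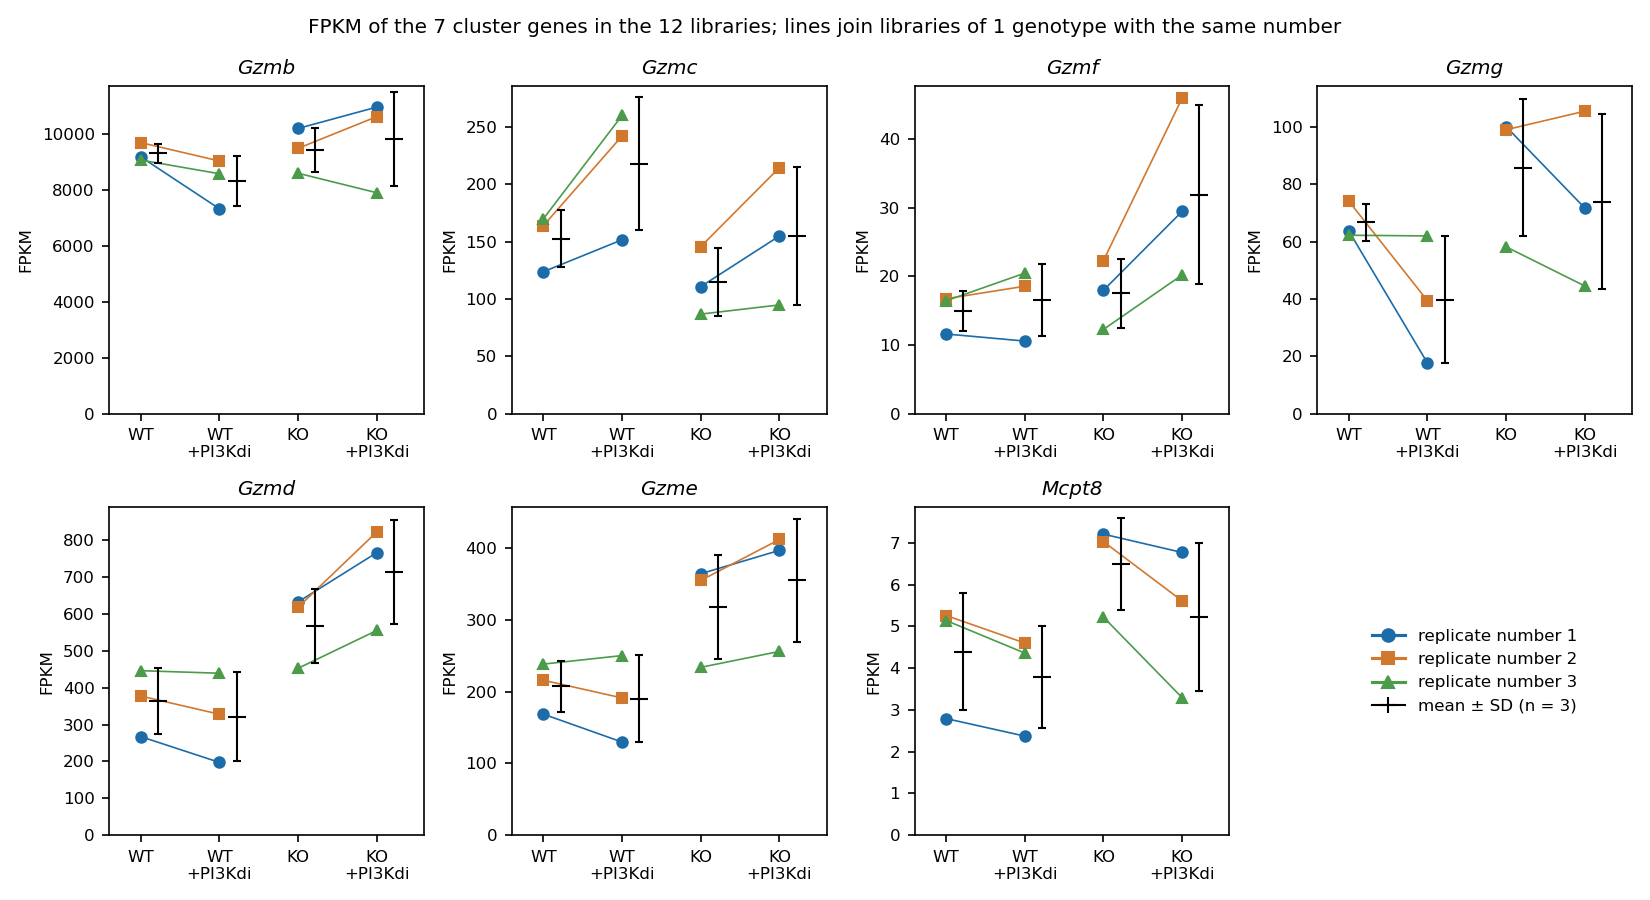
FPKM (y axis, linear from 0) of each cluster gene in the 4 groups (x axis); each coloured point is 1 library, lines join the libraries of 1 genotype that carry the same replicate number, and black bars give the mean ± SD of 3 libraries. Gzmd and Gzme sit higher in the KO groups, Gzmc climbs along all 6 lines, and replicate 1 is the lowest WT+PI3Kdi library and replicate 3 the lowest KO library for every gene.

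Within a group, the 7 genes moved together from library to library. In WT+PI3Kdi, replicate 1 was the lowest of the 3 libraries for 7 of 7 members. In both FOXO1-GFP KO and FOXO1-GFP KO+PI3Kdi, replicate 3 was the lowest for 7 of 7. In WT, replicate 1 was the lowest for 5 of 7, with Gzmb and Gzmg lowest in replicate 3. In WT, FOXO1-GFP KO and FOXO1-GFP KO+PI3Kdi that library also had the fewest estimated reads of its group, whereas in WT+PI3Kdi replicate 1 had the most. The part of depth in this pattern was not tested. Averaged over the members, the log2 level of replicate 1 deviated from its group mean by -0.29 in WT and by -0.57 in WT+PI3Kdi. That of replicate 3 deviated by -0.36 in FOXO1-GFP KO and by -0.50 in FOXO1-GFP KO+PI3Kdi. The signed median deviation of the 10371 genes that averaged 1 FPKM or more lay within 0.0345 of 0 in every library. Scaling to depth keeps that median near 0, so it does not tell how far a typical gene deviated. The 21 correlations between members of these deviations over the 12 libraries were all positive, from a Pearson r of 0.68 for Gzmd with Gzmb to 0.99 for Gzmf with Gzmc and 0.97 for Gzmd with Gzme. They remained positive, at 0.46 to 0.98, without the 2 libraries farthest from the median of the first gene of each pair. These are descriptions without a test, since same-numbered libraries of a genotype deviate together and the 12 libraries form 6 pairs. The swing was not particular to granzymes: for each member, between 1.45% and 6.42% of the 10371 genes correlated with it at least as strongly as its least alike fellow member.

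**Figure D2:**
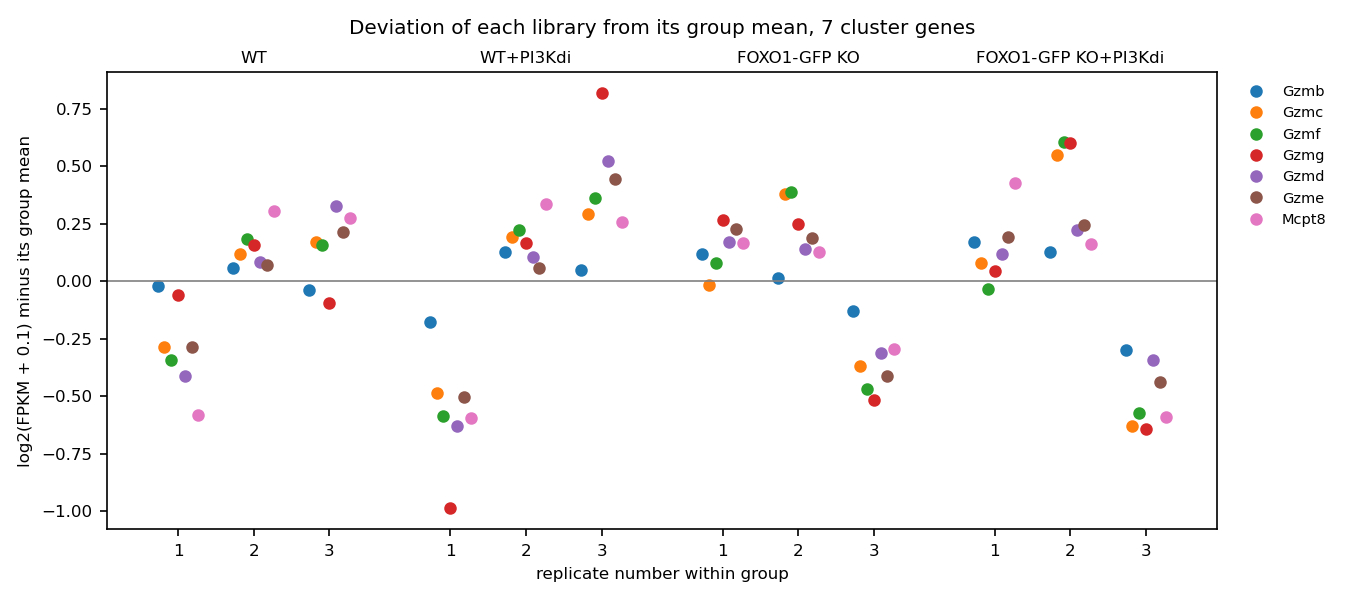
Deviation of each library from its group mean on the log2(FPKM + 0.1) scale (y axis) for the 7 cluster genes (colours), by group and replicate number (x axis). The points of a library lie mostly on 1 side of 0, and Gzmb deviates less than the other members.

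When group differences were left in, Gzmc stood apart from the rest of the cluster. Over the raw log2 levels of the 12 libraries, every pair of members without Gzmc had a positive r, the lowest 0.57 for Mcpt8 with Gzmf. Gzmd and Gzme kept an r of 0.98 (Spearman's rho 0.97), and each was the other's most similar gene among the 10371. Gzmc, in contrast, had an r of 0.42 with Gzmf, of 0.19 with Gzmb and of -0.04 to 0.07 with Gzmd, Gzme, Gzmg and Mcpt8. The 3 genes most like Gzmc were Txndc12, Fam20a and Prxl2a (r 0.89, 0.89 and 0.87), and Gzmf was only in place 903 and Gzmb in place 2465 of that order. Among the genes most like Gzmf were Avil (0.93) and Sil1 (0.89), with Gzmd in place 15 and Gzme in place 19. Those most like Gzmg were Tmem9, Lat2 and Cop1 (0.92, 0.92 and 0.91). Gzmb was most like Cct2 (0.91), Shmt2 (0.88) and Gorasp2 (0.87), and Mcpt8 was most like Rrp7a (0.96), Nop16 (0.95) and Cct7 (0.95). These values are descriptions over 12 libraries that share groups and pairs, and carry no test.

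To ask what PI3K p110δ inhibition did in WT CTL, WT+PI3Kdi was compared with WT. No member passed the test used throughout (limma on log2(FPKM + 0.1), with a fold change above 1.5 and an adjusted p below 0.05 among the 13283 genes), 0 of 7 against 0.0979% of all genes. An unadjusted p under 0.05 was found for 1 of 7, Gzmg, and for 5.14% of all genes. The replicate numbers were taken to pair vehicle and inhibitor libraries within a genotype. In the fit with that replicate block the count was also 0 of 7, against 2.57% of all genes. Of the members, 5 had a lower and 2 a higher mean log2 level, with a median log2 difference of -0.17 over the 7 and -0.04 over all genes.

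Gzmg showed the widest difference of the 7. It stood at 63.7, 74.1 and 62.2 FPKM in WT and at 17.6, 39.4 and 62.0 FPKM in WT+PI3Kdi. All 3 treated libraries were below all 3 untreated ones, as also for Gzmb, a pattern met by 10.2% of all genes, but by a thin margin, 61.97 FPKM in the third treated library against 62.21 FPKM in the lowest untreated one. The log2 fold change was -0.92 ± 0.42 (SE, adjusted p = 0.96), and with the replicate block -0.92 ± 0.26 (adjusted p = 0.054). Replicate 1 carried much of it: without that WT+PI3Kdi library the log2 fold change was -0.43, and with the block -0.45.

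Gzmc, whose product kills target cells like granzyme B but with other substrates, went the other way. It was at 124, 164 and 170.1 FPKM in WT and at 152, 242 and 260.3 FPKM in WT+PI3Kdi. The groups overlapped, since the lowest treated library was below 2 untreated ones, but each treated library was above its own partner, by 1.225-fold, 1.48-fold and 1.53-fold. The log2 fold change was 0.49 ± 0.30 (adjusted p = 0.9997), and with the replicate block 0.49 ± 0.13 (adjusted p = 0.041), which at 1.404-fold stayed below the fold threshold.

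Gzmb, the main effector protease, was at 9173, 9685 and 9060.0 FPKM in WT and at 7317, 9026 and 8571 FPKM in WT+PI3Kdi. The groups did not overlap, yet the fold was only 0.889 (log2 fold change -0.17 ± 0.25). For Gzmd the libraries were at 267, 377 and 446 FPKM without and 197, 328 and 439 FPKM with inhibitor. Gzme stood at 169, 216 and 238.5 FPKM without and 129.7, 191 and 250.4 FPKM with inhibitor, so that both genes overlapped almost fully between the groups. Gzmf was at 11.6, 16.75 and 16.45 FPKM without and 10.6, 18.6 and 20.5 FPKM with inhibitor. Mcpt8 was at 2.79, 5.26 and 5.14 FPKM without and 2.37, 4.60 and 4.36 FPKM with inhibitor. The log2 fold changes of Gzmd, Gzme, Gzmf and Mcpt8 lay between -0.22 and 0.11, with SEs of 0.27 to 0.33, or of 0.11 to 0.14 with the replicate block (adjusted p 0.29 to 0.69). Gzmb, Gzmd, Gzmg and Mcpt8 were each lower with inhibitor in 3 of 3 WT pairs.

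In FOXO1-null CTL the same inhibitor comparison gave another order of members. Without the block 0 of 7 passed, against 0.0452% of all genes. An unadjusted p under 0.05 was found for 1 of 7, Gzmf, and for 5.17% of all genes. With the replicate block 1 of 7 passed, Gzmf, against 2.79% of all genes. The median log2 difference over the 7 was 0.16 against -0.02 over all genes, with 5 members higher and 2 lower in mean log2 level. No member separated the groups fully, as 10.1% of all genes did.

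Gzmf, a granzyme of low abundance in these cells, was at 17.98, 22.3 and 12.3 FPKM in FOXO1-GFP KO and at 29.5, 46.0 and 20.2 FPKM in FOXO1-GFP KO+PI3Kdi. Replicate 3 was the lowest library of both groups, which made the groups overlap, and each treated library exceeded its partner, by 1.64-fold, 2.06-fold and 1.64-fold. The log2 fold change of 0.82 had an SE of 0.33 without the block (adjusted p = 0.87) and of 0.14 with the replicate block (adjusted p = 0.0051), where Gzmf rose 1.77-fold. It was also called with the block as fixed terms within genotype (adjusted p = 0.00242), with voom and the block (adjusted p = 0.00189), and in all 12 blocked fits that left out 1 library (adjusted p 0.0040 to 0.034). It was not called with a fixed block on the number shared by all 4 groups (adjusted p = 0.225).

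Gzmc was at 111, 146 and 86.8 FPKM without and 155, 215 and 94.8 FPKM with inhibitor in the KO cells, above its partner in 3 of 3 pairs. Its log2 fold change was 0.39 ± 0.30 without and ± 0.13 with the replicate block (adjusted p = 0.93 and 0.074). Together with WT, Gzmc was higher with inhibitor in 6 of 6 pairs, and Mcpt8 was lower in 6 of 6, a uniformity that 26.3% of the 10371 genes showed in 1 direction or the other. Mcpt8 went from 7.21, 7.03 and 5.22 FPKM to 6.77, 5.61 and 3.29 FPKM. Its log2 fold change was -0.35 ± 0.33, or ± 0.14 with the replicate block (adjusted p = 0.93 and 0.12).

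Gzmd and Gzme were above their partners in 3 of 3 KO pairs. Gzmd was at 633, 619 and 453 FPKM without and at 767, 823 and 555 FPKM with inhibitor, a log2 fold change of 0.33 ± 0.29, or ± 0.12 with the replicate block (adjusted p = 0.93 and 0.098). Gzme was at 365, 355 and 234 FPKM without and at 397, 412 and 256 FPKM with inhibitor, a log2 fold change of 0.16 ± 0.27. Gzmg, by comparison, was at 100.1, 99.0 and 58.15 FPKM without and at 71.7, 105.5 and 44.5 FPKM with inhibitor, lower in 2 of 3 pairs. Gzmb was at 10191, 9481 and 8588 FPKM without and at 10955, 10613 and 7891 FPKM with inhibitor, a log2 fold change of 0.05 ± 0.25.

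**Figure D3:**
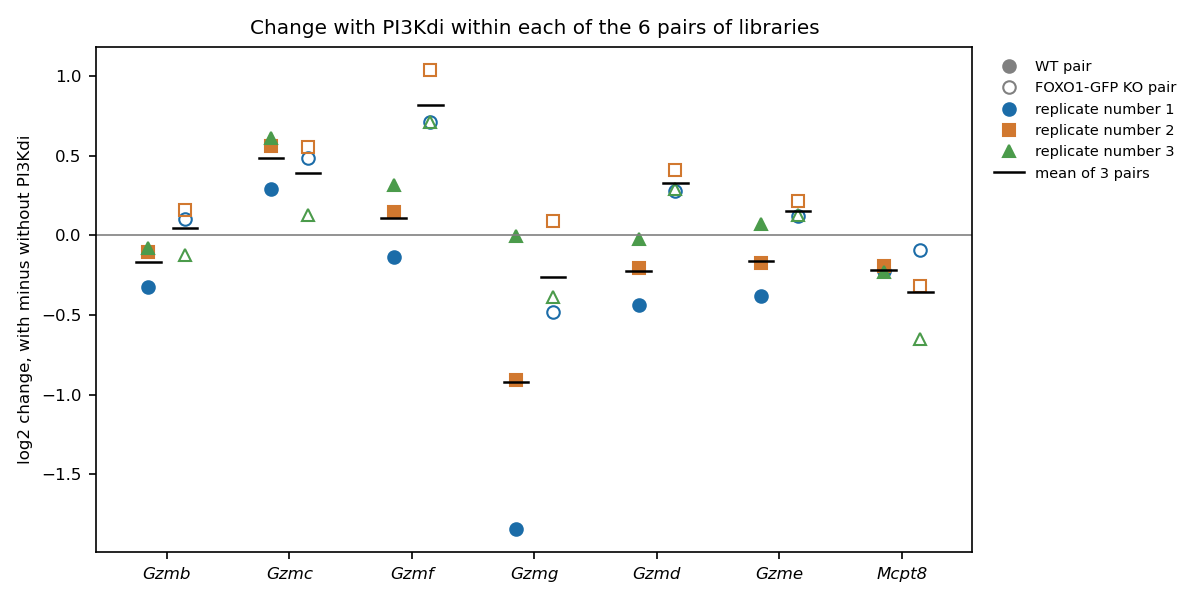
Change of each cluster gene with PI3Kdi (y axis, log2 of FPKM + 0.1, with minus without) in each of 3 WT pairs (filled) and 3 FOXO1-GFP KO pairs (open); the short black lines are means of 3 pairs. All 6 points of Gzmc lie above 0 and all 6 of Mcpt8 below it, and the WT points of Gzmd lie below 0 while its KO points lie above.

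The ratios between members tell how evenly the locus responded. Within the 6 pairs, the level of Gzmf relative to Gzmg was higher with inhibitor in 6 of 6, by a mean of 1.06 on the log2 scale (SD 0.45), and that of Gzmc relative to Gzmg was higher in 6 of 6, by 1.03 (SD 0.66). Gzmc relative to Gzmb and Gzmf relative to Gzmb were also higher in 6 of 6 pairs, by 0.50 (SD 0.18) and 0.53 (SD 0.29), and Gzmf relative to Gzmd by 0.41 (SD 0.12). The ratio of Gzme to Gzmd, in contrast, changed by -0.06 (SD 0.13), higher in 3 of 6 pairs, and that of Gzmf to Gzmc by 0.03 (SD 0.46). Gzmd and Gzme, the pair with the most similar promoters and coding sequences, had the smallest SD of the log2 ratio over the 12 libraries among the 21 pairs of members, 0.14. Gzmf and Gzmg, whose promoters were 84.5% identical and both held TGACGTCA, had the widest mean change of their ratio among the 21. The ratios named are a choice from the 21, and their counts are given without a test or a share for other gene pairs. Of single genes, 26.3% of the 10371 moved 1 way in all 6 pairs. Gzmd and Gzme also share read stretches, and had 3620 to 22641 and 2262 to 11143 estimated reads per library. Gzmf had 145 to 892 and Gzmg 305 to 3234. Whether likeness of promoters or coding sequences, shared stretches or counting error bears on these ratios was not tested.

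The response of each member to the inhibitor was then compared between genotypes. In the test of the difference of responses 0 of 7 members and 0% of all genes were called, with 200 genes at an unadjusted p under 0.05 and none of them a member. With the replicate block 0 of 7 were called against 0.0226% of all genes, and Gzmf and Gzmd had unadjusted p of 0.0034 and 0.0070 (adjusted p = 0.19 and 0.24). In that blocked fit 1435 of the 13283 genes had an unadjusted p under 0.05. The difference was 0.71 ± 0.47 for Gzmf (± 0.20 with the block) and 0.55 ± 0.41 for Gzmd (± 0.17 with the block), while for Gzmc it was -0.10 ± 0.43.

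**Figure D4:**
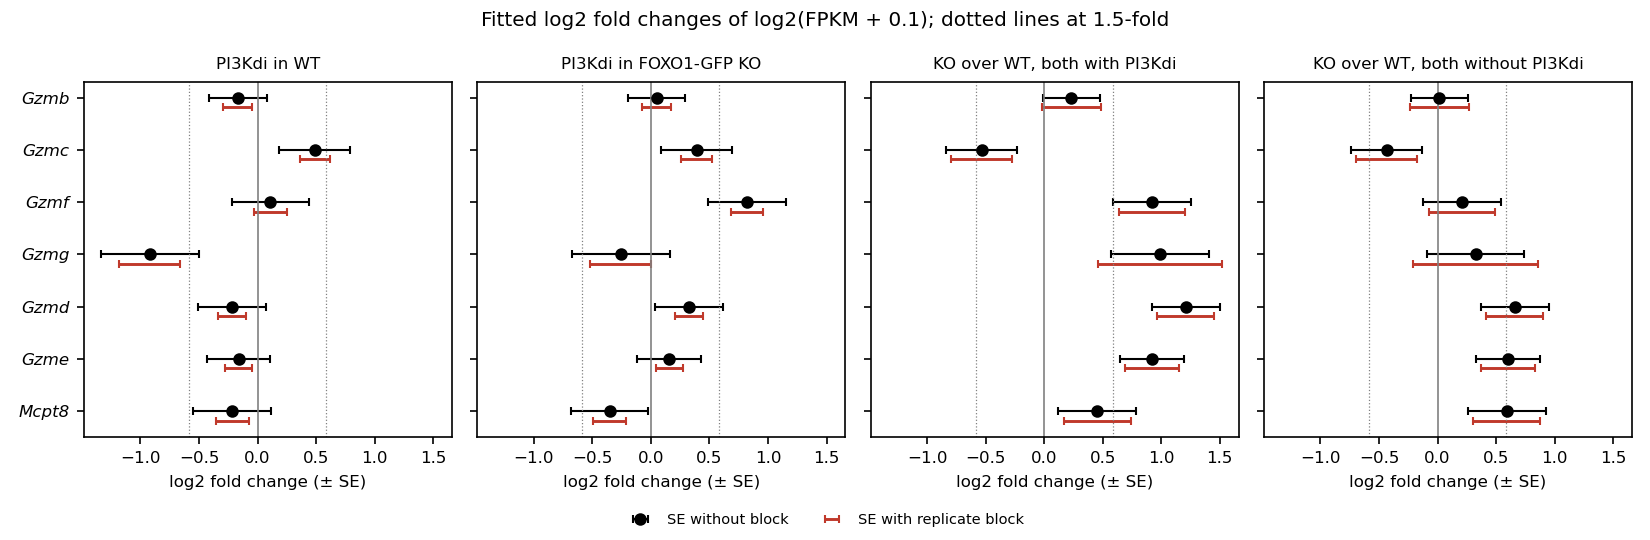
Fitted log2 fold changes of the 7 cluster genes (x axis) in 4 comparisons, with the SE without a block (black) and with the replicate block (red); dotted lines mark 1.5-fold. With PI3Kdi, Gzmd, Gzme, Gzmf and Gzmg lie at 0.92 to 1.21 in KO over WT and Gzmc at -0.53.

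The comparison of FOXO1-null with WT CTL under the inhibitor gave the widest differences in the cluster. KO cells were sorted as GFP-, and so for use of the granzyme B promoter that drives Cre, whereas WT cells were sorted only as CD8+. In both genotype comparisons the loss of FOXO1 therefore cannot be told apart from this sorting, and the part of each was not tested. The levels of Gzmd, Gzme, Gzmf and Gzmg were 1.89 to 2.31 times those in WT cells, whereas that of Gzmc was 0.691 times the WT level and those of Gzmb and Mcpt8 were 1.175 and 1.37 times it. Without the block 0 of 7 members were called, against 1.45% of all genes, although 4 of 7 had an unadjusted p under 0.05, as 10.2% of all genes did. With the replicate block 1 of 7 was called, Gzmd, against 1.18% of all genes. The median log2 difference over the 7 was 0.92 against 0.01 over all genes.

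Gzmd, at 715 ± 141 FPKM (mean ± SD of 3 libraries), was higher in FOXO1-GFP KO+PI3Kdi than in WT+PI3Kdi, at 321 ± 121 FPKM. All 3 KO libraries were above all 3 WT libraries. The log2 fold change of 1.21 ± 0.29 had an adjusted p of 0.078, and 1.21 ± 0.24 with the replicate block an adjusted p of 0.034, where Gzmd rose 2.31-fold. That call is close to the threshold: of the 12 blocked fits that left out 1 library, it stood in 2, those without WT replicate 1 (adjusted p = 0.0445) and without WT+PI3Kdi replicate 3 (adjusted p = 0.027), and was lost in the other 10 (adjusted p up to 0.094).

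Gzme, at 355 ± 86.1 against 190.4 ± 60.4 FPKM, also separated the 2 groups, by a narrow margin of 256 against 250.4 FPKM, and 14.8% of all genes separated them. Its log2 fold change was 0.92 ± 0.27 (adjusted p = 0.18, and 0.10 with the replicate block). Gzmf was at 31.9 ± 13.1 against 16.5 ± 5.26 FPKM (log2 fold change 0.92 ± 0.33, adjusted p = 0.30) and Gzmg at 73.9 ± 30.6 against 39.65 ± 22.2 FPKM (0.99 ± 0.42, adjusted p = 0.44). Both overlapped between the groups. Gzmc was at 155 ± 60.0 against 218 ± 58.2 FPKM (-0.53 ± 0.30, adjusted p = 0.63), with the KO group lower in mean.

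The genotypes were compared without the inhibitor in the same way. In FOXO1-GFP KO against WT, 0 of 7 were called both without the block (0.331% of all genes) and with the replicate block (0.233% of all genes). Without the block, 2 of 7, Gzmd and Gzme, had an unadjusted p under 0.05, as 6.51% of all genes did. Gzmd, at 568 ± 100.2 against 364 ± 90.3 FPKM, was the 1 member whose groups did not overlap, as for 10.3% of all genes, with a log2 fold change of 0.66 ± 0.29 (adjusted p = 0.73). Gzme was at 318 ± 72.8 against 208 ± 35.7 FPKM, a log2 fold change of 0.60 ± 0.27, and Mcpt8 at 6.49 ± 1.10 against 4.40 ± 1.39 FPKM, a log2 fold change of 0.59 ± 0.33. Gzmf and Gzmg were at 0.21 ± 0.33 and 0.32 ± 0.42 on the same scale and Gzmc at -0.43 ± 0.30. Gzmb, at 9420.0 ± 803 against 9306 ± 333 FPKM, had a log2 fold change of 0.01 ± 0.25, so its level did not differ between genotypes beyond the spread of the libraries. Whether the Cre transgene followed the level of Gzmb was not tested. These comparisons share libraries with the inhibitor comparisons, and in bulk RNA a change in the fraction of cells that express a gene cannot be told from a change per cell.

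The flanking genes of chromosome 14 were taken from the same fits. Of 43 other table genes within 1 Mb of the cluster, 31 below, 1 inside and 11 above it, 0 were called in any of the 5 comparisons, with or without the replicate block, where at most 1.45% of all genes were called without it and at most 2.79% with it, so that a count of 0 is near the background. Their median log2 difference in KO over WT with inhibitor was 0.06, against 0.92 for the 7 members. The nearest on the low side, Sdr39u1, had a log2 fold change of 0.10 there, and the nearest on the high side, the pseudogene Gm48200, of 0.05. Ctsg, inside the cluster, had the largest value of the 43, 1.42 (adjusted p = 0.20), and its levels had an r of 0.90 with those of Gzmd over the 12 libraries, but it was at only 0.13 to 1.07 FPKM.

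Granzymes and granule genes encoded elsewhere were counted in the same fits. Of 20 other cytotoxic granule genes, all in the table, 2 were called higher and 1 lower in KO over WT with inhibitor, against 1.45% of all genes, and 0 in the other 4 comparisons. The 2 higher ones were Gzmm, a granzyme that cleaves after methionine (log2 fold change 0.90 ± 0.17, adjusted p = 0.025), and Fasl, the ligand of the death receptor Fas (0.63 ± 0.13, adjusted p = 0.044). The lower one was Gzmk, a tryptase-like granzyme (-0.71 ± 0.15, adjusted p = 0.044, and 0.13 with the replicate block), while with the block Serpinb6b, a serpin, was called lower (-0.97, adjusted p = 0.036). Prf1, encoding perforin, and Gzma, the other abundant granzyme, were not called, with log2 fold changes of -0.47 and 0.32 in WT and -0.40 and 0.44 in KO cells with inhibitor. In the blocked fit the adjusted p was 0.028 and 0.046 for Prf1 and 0.083 and 0.021 for Gzma, all below 1.5-fold. The median of the 20 in KO over WT with inhibitor was 0.07, against 0.01 over all genes.

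Of 19 regulators and receptors tied to granzyme expression, 1 was called without the block (1.45% of all genes in that comparison), Stat4, the signal transducer of IL-12, which was lower in KO than in WT cells with inhibitor (log2 fold change -0.96 ± 0.12, adjusted p = 0.0024, and 0.0034 with the replicate block). With the replicate block, which called 2.57% of all genes in WT and 2.79% in KO cells, Zfp683, which encodes HOBIT, was lower with inhibitor in WT cells (-1.31, adjusted p = 0.0014) and in KO cells (-0.87, adjusted p = 0.016). In WT cells Prdm1, encoding BLIMP1, was lower (-0.61, adjusted p = 0.023) and Irf4 higher (0.60, adjusted p = 0.0078) with inhibitor in that fit. In KO cells Prdm1 was also lower (-0.50, adjusted p = 0.044), but below 1.5-fold, and Irf4 was at 0.06 (adjusted p = 0.74). The median of the 19 was 0.08 in WT and 0.09 in KO cells, against -0.04 and -0.02 over all genes. Whether these genes bear on the granzyme levels was not tested.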

How the data were processed

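RNA was sequenced from 12 CTL libraries, 4 groups of 3, as 75-base paired reads from 300 ng of RNA with a stranded mRNA kit. The deposited values are FPKM: the authors aligned reads with STAR 2.7.1a to GRCm38.p6, counted them per Ensembl gene with STAR's GeneCounts option, removed low genes, applied TMM scaling in edgeR and divided by summed exon length. The strand column used is not given in the sources used here, so reads from Gzmf and an overlapping antisense gene could be mixed. TMM factors recomputed from estimated reads were 0.98 to 1.016, so scaling moves values little.

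log2(FPKM + 0.1) was fitted with limma 3.58.1 (R 4.3.3; 4 group means, trended empirical Bayes, Benjamini-Hochberg over 13283 genes). Called means adjusted p under 0.05 and fold over 1.5. Estimated reads came from FPKM, GENCODE M21 exon length and a recovered depth, at which 98.5 to 99.3% of held-out values were whole within at most 0.0565 to 0.199 reads (7.98 to 28.9% by chance). Depth limits precision to counting error plus library spread. Same-numbered libraries of a genotype deviated together over 10371 genes (r 0.59 to 0.84 in the 6 pairs, against -0.76 to 0.32 for other numbers). The numbers were therefore taken to pair them, and the replicate block was a random effect (correlation 0.76). Across genotypes r was -0.50 to 0.73 for the same number and -0.70 to 0.67 for other numbers, so a shared number did not set libraries apart there. The labels call the 3 libraries of a group biological replicates; the sources used here do not say for these groups whether each is a separate animal, so p-values measure spread between libraries. Fits were tested on simulated data. Members and gene lists were chosen with earlier results of these data known. Named genes were the members, Foxo1, called or nearest genes within 1 Mb, called or granzyme and perforin genes of the lists, and genes among the 3 most similar to each member, of which some are not reported here. Promoters came from RefSeq; all 7 members matched. Alternatives were other pseudocounts, filters, scalings, blocks, voom on estimated reads, and each library left out.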

Additional observations from a re-analysis of the deposited data

Results flagged for a closer look

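Gzmd was lower with PI3Kdi in 3 of 3 WT pairs and higher in 3 of 3 FOXO1-GFP KO pairs, the 1 member of the 7 whose pairs moved in opposite directions throughout. The difference of the 2 responses was 0.55 on the log2 scale (± 0.41, adjusted p = 1, limma; ± 0.17 and adjusted p = 0.24 with the replicate block), so it did not pass the test. The smallest of the 6 changes was that of the third WT pair, 446 against 439 FPKM.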

How the results depend on the processing

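Depth limits Mcpt8 most, and with 3 libraries a group the call counts rest on how the replicate numbers are treated. Without a block, 0 of 7 members were called in each comparison; pseudocounts, filter, quantile or median scaling, a fit of the groups compared alone, untrended variance and voom left that count at 0. With the replicate block as a random effect 1 member was called in KO cells with inhibitor (Gzmf) and 1 in the genotype comparison with inhibitor (Gzmd). With the block as fixed terms within genotype it was 1 (Gzmf), with the number shared by all groups 1 (Gzmd, adjusted p = 0.0400), and with voom and the replicate block 1 each for Gzmg in WT (log2 fold change -0.92, adjusted p = 0.0319), Gzmf in KO and Gzmd (adjusted p = 0.0168). Leaving out a library gave 0 to 1 in the genotype comparison with inhibitor (Gzmd without WT+PI3Kdi replicate 3, adjusted p = 0.0489). Leaving out a library with the replicate block gave 1 in KO cells in 12 of 12 fits. It gave 0 to 1 in WT, with Gzmg called without WT replicate 3 or WT+PI3Kdi replicate 3 and Gzmc without WT+PI3Kdi replicate 1, and 0 to 1 for the genotype with inhibitor, with Gzmd called only without WT replicate 1 or WT+PI3Kdi replicate 3. The block fits with a library left out were added after the data were seen.

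Quantile normalisation gives genes of equal rank the same value in every library. It turned Gzmb to 0 in WT with inhibitor and to 0 for genotype without inhibitor. In KO with inhibitor, for genotype with inhibitor and for the difference of responses it turned Gzmb to -0.206. Gzmb therefore did not hold the same rank in all libraries. Signs also turned when a library was left out, all for uncalled values. In WT with inhibitor the ranges were -0.48 to 0.0937 for Gzmd, -0.38 to 0.0902 for Gzme, -0.0716 to 0.40 for Gzmf and -0.51 to 0.0806 for Mcpt8. In KO they were -0.0382 to 0.20 for Gzmb, -0.0504 to 0.38 for Gzme and -0.56 to 0.0635 for Gzmg. For genotype without inhibitor Gzmb ran from -0.0438 to 0.0796, and for the difference of responses Gzmc ran from -0.37 to 0.22 and Mcpt8 from -0.43 to 0.16. With the replicate block, Gzmb turned for genotype without inhibitor to -0.00478 (without WT replicate 2), -0.02416 (WT replicate 3) and -0.03661 (FOXO1-GFP KO replicate 3), and in KO to -0.01038 (FOXO1-GFP KO+PI3Kdi replicate 2). Gzmg turned for genotype without inhibitor to -0.04128 (WT replicate 3) and Gzmf in WT to -0.009949 (WT+PI3Kdi replicate 3). The difference of responses turned to 0.07341 for Gzmc and 0.04452 for Mcpt8 (both FOXO1-GFP KO+PI3Kdi replicate 3). The cause was not tested.

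Over all genes, 13 were called in WT with inhibitor without a block, 342 with the random and 254 with the fixed replicate block, 77 with the number shared by all groups, 34 with voom, 387 with voom and the block, and 0 in a fit of the groups compared alone (681 at an unadjusted p under 0.05). In KO cells these counts were 6, 370, 328, 63, 5, 477 and 0 (676 unadjusted). For genotype with inhibitor 193 became 438 with the shared number and 94 in the groups alone, and for genotype without inhibitor 44 became 165 and 0 (786 unadjusted). The difference of responses went from 0 (200 unadjusted) to 3 with either within-genotype block and 13 with voom and the block. The fixed within-genotype block gives no value for the 2 genotype comparisons, and the fit of the groups compared is the same fit for the difference.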
